A study of Mus musculus with 36 samples.

Results

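The genes described are 9 transcription factor genes of chondrocytes: the SOX genes Sox5, Sox6 and Sox9, the RUNX genes Runx1, Runx2 and Runx3, and Trps1, Mef2c and Nkx3-2. They were chosen by name, among 23059 genes with counts. For RNA, the count rows whose RefSeq transcript belongs to one of these genes were taken (24 of 30048 rows), and each gene is described by its row with the highest mean count over all libraries. For DNA, the CpG cytosines in each gene and 5 kb to either side were taken, 1963 of 1444973 tested at 4 weeks and 1715 of 1273121 at 12 weeks.

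The tissue was microdissected articular cartilage of male C57BL/6J mice, which underwent destabilization of the medial meniscus (DMM) of the right knee at 12 weeks of age. DMM is a surgical model of osteoarthritis, and the left knee of the mice, on which no operation was performed, was the control, so that no limb had a sham operation. Limbs were collected 4 and 12 weeks after surgery, which gave 4 groups of 3 libraries for RNA-seq and, from other mice, 4 groups of 3 DNA samples, each pooled from 3 knees. DNA was read by reduced representation sequencing after bisulfite alone (BS), which reads 5-methylcytosine (5mC) and 5-hydroxymethylcytosine (5hmC) alike, and after oxidation and bisulfite (oxBS), which reads 5mC alone. Libraries of a group are separate pools, and time since surgery cannot be told apart from age or from the day of collection.

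SOX9 is the factor on which chondrocyte identity rests. It binds enhancers of cartilage matrix genes such as Col2a1 and Acan, and SOX5 and SOX6, which lack an activation domain of their own, bind beside it and strengthen its action. RUNX2, with RUNX3 and MEF2C, drives chondrocytes into hypertrophy and switches on genes such as Col10a1 and Mmp13, whereas NKX3-2 and TRPS1 are repressors that hold RUNX2 activity back. RUNX1 is found in early and superficial chondrocytes and is also a central factor of blood formation, and RUNX3 is also a lymphocyte factor.

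At the DNA level, the findings turn on short stretches inside introns of Sox5, Runx1, Sox6 and Runx2. Of the 1715 tested cytosines around the 9 genes, 12 were called lower in DMM at 12 weeks, where a call is a difference of at least 25 percentage points of 5mC with q under 0.05 in a likelihood ratio test of the pooled reads. In the genome 0.227% of cytosines were called, and 0 of the 12 calls remained with a correction for overdispersion among the libraries. They are shown here because all called cytosines lie in them. Each is printed 5′ to 3′ on the strand of its gene from GRCm38. In the first pair, which are the called regions, capitals mark every CpG with a tested cytosine. In the others, with 40 bases to each side of the call, capitals mark the called CpGs only.
Sox5, intron, chr6:144039640-144039705: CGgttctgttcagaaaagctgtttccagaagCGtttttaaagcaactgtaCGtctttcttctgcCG
Runx1, intron, chr16:92693004-92693126: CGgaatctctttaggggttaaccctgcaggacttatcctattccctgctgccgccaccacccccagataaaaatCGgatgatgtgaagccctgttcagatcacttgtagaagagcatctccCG
Sox5, intron, chr6:144170835-144171113: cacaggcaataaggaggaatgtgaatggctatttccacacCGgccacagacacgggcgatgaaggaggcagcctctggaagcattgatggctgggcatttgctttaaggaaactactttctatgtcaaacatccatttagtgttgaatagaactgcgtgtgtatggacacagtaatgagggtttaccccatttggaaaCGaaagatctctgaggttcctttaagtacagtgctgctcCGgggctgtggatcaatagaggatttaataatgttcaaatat
Sox5, intron, chr6:144203529-144203609: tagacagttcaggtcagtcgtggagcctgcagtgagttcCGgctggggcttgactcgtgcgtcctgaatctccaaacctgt
Runx1, intron, chr16:92683924-92684015: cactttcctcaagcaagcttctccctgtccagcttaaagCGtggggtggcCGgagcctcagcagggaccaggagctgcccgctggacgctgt
Runx1, intron, chr16:92694614-92694694: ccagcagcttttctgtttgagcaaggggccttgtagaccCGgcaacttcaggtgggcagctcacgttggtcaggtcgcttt
Runx1, intron, chr16:92778191-92778271: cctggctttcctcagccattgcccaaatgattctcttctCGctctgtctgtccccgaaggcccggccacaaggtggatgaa
Sox6, intron, chr7:115511994-115512074: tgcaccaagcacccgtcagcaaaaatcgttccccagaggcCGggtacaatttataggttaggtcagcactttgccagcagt
Runx2, intron, chr17:44505909-44505989: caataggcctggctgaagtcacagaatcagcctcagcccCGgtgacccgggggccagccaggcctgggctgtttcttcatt

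RNA libraries held 27706547 to 62737656 counts. All 9 genes passed the filter on low counts, with Nkx3-2 the lowest at 15 to 111 counts per library. Levels are counts scaled to the library total and its TMM factor (CPM). Compared per kb of transcript, Sox9 (11.7 to 85.4 CPM per kb over 12 libraries) and Mef2c (17.4 to 35.2) stood highest, and Sox9 was above Mef2c in 8 of 12 libraries. Mef2c was above the next gene, Sox5 (mean 6.89), in 12 of 12 libraries with no overlap of their ranges. Sox5, Trps1 (6.16), Runx1 (6.09), Sox6 (4.69) and Runx2 (4.11) overlapped each with its neighbour in this order. Runx2 was above Runx3 (2.14) in 12 of 12 libraries, and Nkx3-2 (0.906) was lowest, below Runx3 in 10 of 12.

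The libraries held other tissues beside cartilage. Summed over 8 chondrocyte markers, the level was 11652 to 35350 CPM, most of it from Prg4 and Cilp. Neutrophil and myeloid markers (9 of 10 with count rows, none at 0 throughout) summed to 8753 to 25198 CPM in control and 12869 to 19065 CPM in DMM at 4 weeks, and to 24677 to 41887 CPM in control and 19803 to 32492 CPM in DMM at 12 weeks. Skeletal muscle markers (12 of 12 detected) summed to 6131 to 22898 CPM in control and 564 to 3696 CPM in DMM at 4 weeks, and ranged from 95.7 to 15790 CPM at 12 weeks. In such bulk tissue, fewer cells of a type and less RNA per cell cannot be told apart. The part of these tissues in the results below was not tested.

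**Figure D1:**
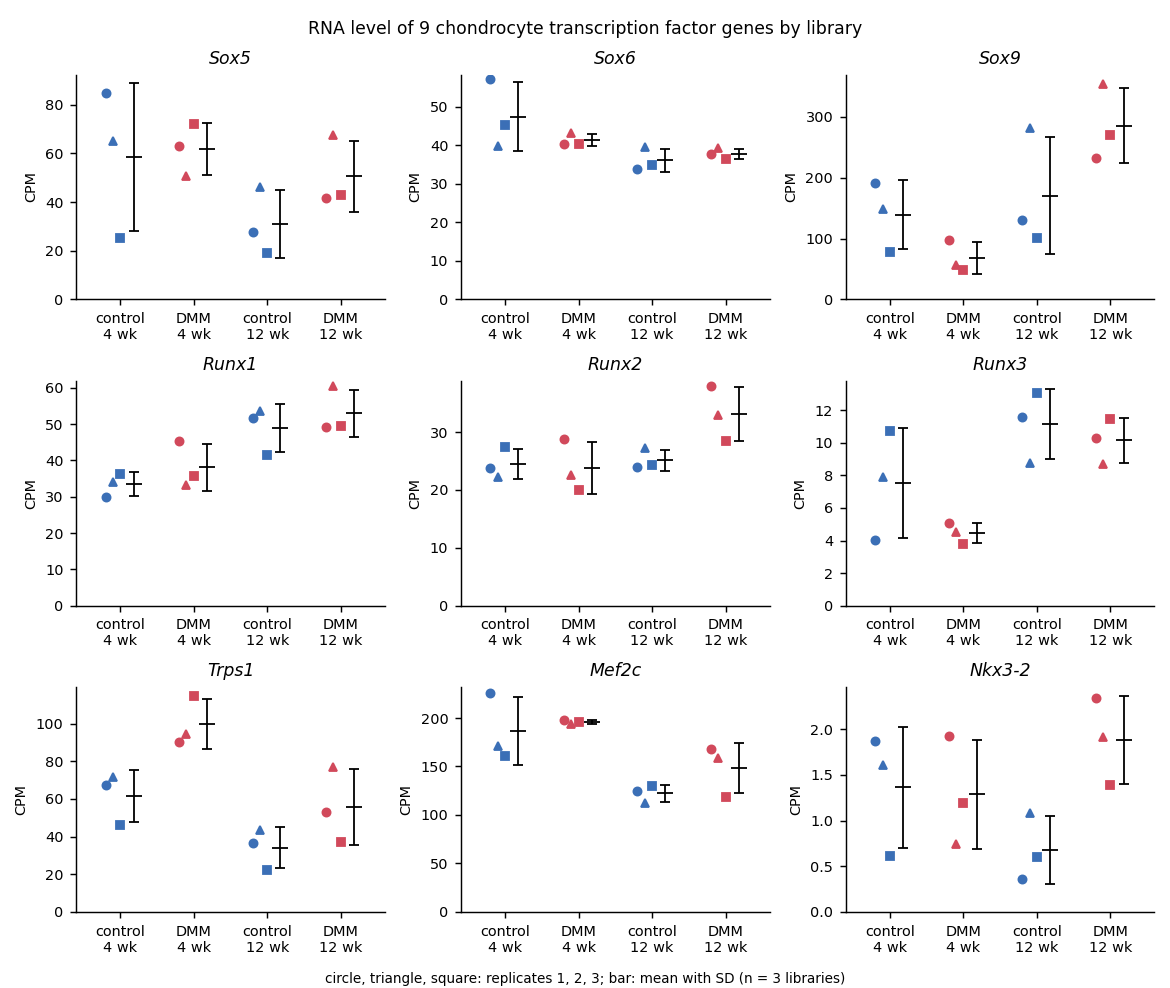
RNA level in CPM (vertical axes, each from 0) of the 9 genes in the 12 RNA libraries, grouped by limb and week, with the replicates as symbols and the mean with SD beside them. Sox9 ranges from 48.4 to 97.4 CPM in DMM at 4 weeks and from 233 to 354 CPM in DMM at 12 weeks, and the control libraries of both times overlap.

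Comparing DMM with control at each time asks whether these factors differ with the injury. None of the 9 genes passed an adjusted p of 0.05 at either time by edgeR's quasi-likelihood test without the replicate number as a block. The background was 0.0757% of 21140 rows called at 4 weeks and 0.00476% of 21010 rows at 12 weeks. By DESeq2, too, 0 of 9 passed at each time, when it called 3.44% of 21697 rows at 4 weeks and 4.02% of 21413 rows at 12 weeks. Without adjustment, 2 of 9 had p under 0.05 at 4 weeks (background 13.7%) and 2 of 9 at 12 weeks (background 16.3%). The limbs did not overlap for 1 of 9 genes at 4 weeks (background 21.2%) and for 2 of 9 at 12 weeks (background 18.8%). The median log2 fold change of the 9 genes was -0.04 at 4 weeks, beside -0.03 over all rows, and 0.41 at 12 weeks, beside 0.01, when 8 of 9 estimates were above 0.

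For Sox9 the estimate was below 0 at 4 weeks and above 0 at 12 weeks, and neither passed the test. At 4 weeks its level was 191, 148 and 78.2 CPM in control and 97.4, 57.1 and 48.4 CPM in DMM. The limbs overlapped, since the highest DMM library was above the lowest control. The log2 fold change was -1.03 (SE 0.38, adjusted p = 0.33, edgeR).

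At 12 weeks Sox9 was at 130, 281 and 101 CPM in control and at 233, 354 and 271 CPM in DMM. Control replicate 2 alone reached into the DMM range. The log2 fold change was 0.75 (SE 0.37, adjusted p = 0.342, edgeR), and without control replicate 2 it was 1.28 with an adjusted p of 0.0353. Of the 6 fits with a library left out, only this 1 called Sox9. The share of all rows called in it is not given here, so that call has no background. The 8 chondrocyte markers summed to 33526 CPM in that library against 18828 and 11652 CPM in the other controls, and to 22066 to 35350 CPM in DMM. At 4 weeks their sum was 14336 to 33999 CPM in control and 12124 to 19199 CPM in DMM. In control 12-week replicate 2 most of the sum was Prg4 (16658 CPM) and Cilp (12964 CPM), with Col2a1 at 979 CPM and Acan at 732 CPM. The part of this sum in the Sox9 levels was not tested.

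The change of the Sox9 limb difference between the times, tested as the interaction of limb and week, was 1.78 on the log2 scale (SE 0.59, adjusted p = 0.405 by edgeR's quasi-likelihood test over 12 libraries). No member and no row at all passed in this test (21618 rows, 12.3% with an unadjusted p under 0.05), and DESeq2 called no member either. The genes most like Sox9 over the 12 libraries, by the root mean square difference of centred log2 CPM among 15576 genes, were Dusp1 (0.177), Pkn3 (0.199) and Frs3 (0.234), while Sox9 itself had an SD of 0.898.

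Neither SOX9 partner passed the test between limbs at 4 or 12 weeks without a replicate block. With the replicate number as a block, Sox5 passed at 12 weeks (adjusted p = 0.044, edgeR), when 3.49% of rows did. Whether these numbers pair the pools is not known. Sox5 was at 85.0, 65.1 and 25.3 CPM in control and at 62.9, 50.7 and 72.1 CPM in DMM at 4 weeks. The DMM values lay within the control range (log2 fold change 0.09, SE 0.39). At 12 weeks it was at 27.7, 46.4 and 19.2 CPM in control and at 41.8, 67.5 and 42.8 CPM in DMM, where only control replicate 2 reached the DMM range (0.71, SE 0.33, adjusted p = 0.323, edgeR). Sox6 stayed between 33.8 and 57.2 CPM in all 12 libraries, with log2 fold changes of -0.20 (SE 0.19) at 4 weeks and 0.07 (SE 0.12) at 12 weeks.

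Among the RUNX genes, only Runx2 had limbs that did not overlap. At 4 weeks it was at 23.9, 22.2 and 27.4 CPM in control and 28.8, 22.6 and 20 CPM in DMM, with a log2 fold change of -0.04 (SE 0.21). At 12 weeks it was at 23.9, 27.2 and 24.3 CPM in control and 37.9, 32.9 and 28.5 CPM in DMM, so that every DMM library was above every control. The difference was 0.41 on the log2 scale (SE 0.15, adjusted p = 0.275, edgeR). Its nearest genes in pattern were Phospho1, a phosphatase of matrix mineralization (0.117), Rhob (0.143) and Arv1 (0.146), beside an SD of 0.247 for Runx2 itself.

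Runx1 had log2 fold changes of 0.18 (SE 0.20) at 4 weeks and 0.12 (SE 0.14) at 12 weeks. Its levels were 30.0, 34.1 and 36.3 CPM in control and 45.5, 33.1 and 35.6 CPM in DMM at 4 weeks, and 41.4 to 53.7 CPM in control and 49.2 to 60.4 CPM in DMM at 12 weeks, with overlap at each time. Over its 4 rows the 12-week estimates were -0.03 to 0.13. The genes nearest to Runx1 were BC048403 (0.115), Atic (0.152) and Khdc4 (0.157). Runx3 was at 4.01, 7.90 and 10.7 CPM in control and 5.07, 4.53 and 3.81 CPM in DMM at 4 weeks. These overlapped (-0.76, SE 0.37, adjusted p = 0.386, edgeR), and at 12 weeks the estimate was -0.13 (SE 0.20).

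Of the repressors, Trps1 had limbs apart at 4 weeks and Nkx3-2 at 12 weeks. Trps1 was at 67.4, 71.4 and 46.0 CPM in control and 90.2, 94.5 and 115 CPM in DMM at 4 weeks. The log2 fold change was 0.69 (SE 0.21, adjusted p = 0.279, edgeR). At 12 weeks Trps1 was at 36.4, 43.6 and 22.4 CPM in control and 52.8, 77.2 and 37.0 CPM in DMM. These overlapped by 1 library in each limb. The fold change was 0.71 on the log2 scale (SE 0.31, adjusted p = 0.312, edgeR). With the replicate number as a block, Trps1 was called at that time (adjusted p = 0.0352, edgeR), when 3.49% of rows were.

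Nkx3-2 was scarce. At 12 weeks its level was 0.356, 1.08 and 0.598 CPM in control, from 15, 67 and 22 counts, and 2.34, 1.91 and 1.39 CPM in DMM, from 111, 50 and 61 counts. The limbs did not overlap, and the log2 fold change of 1.46 (SE 0.45, adjusted p = 0.244 by edgeR and 0.0642 by DESeq2) was the largest of the 9 genes at that time. At 4 weeks the estimate was -0.08 (SE 0.51). Mef2c, which is also a muscle factor, was at 161 to 226 CPM in control and 194 to 198 CPM in DMM at 4 weeks (0.07, SE 0.20) and had an estimate of 0.29 (SE 0.17) at 12 weeks.

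**Figure D2:**
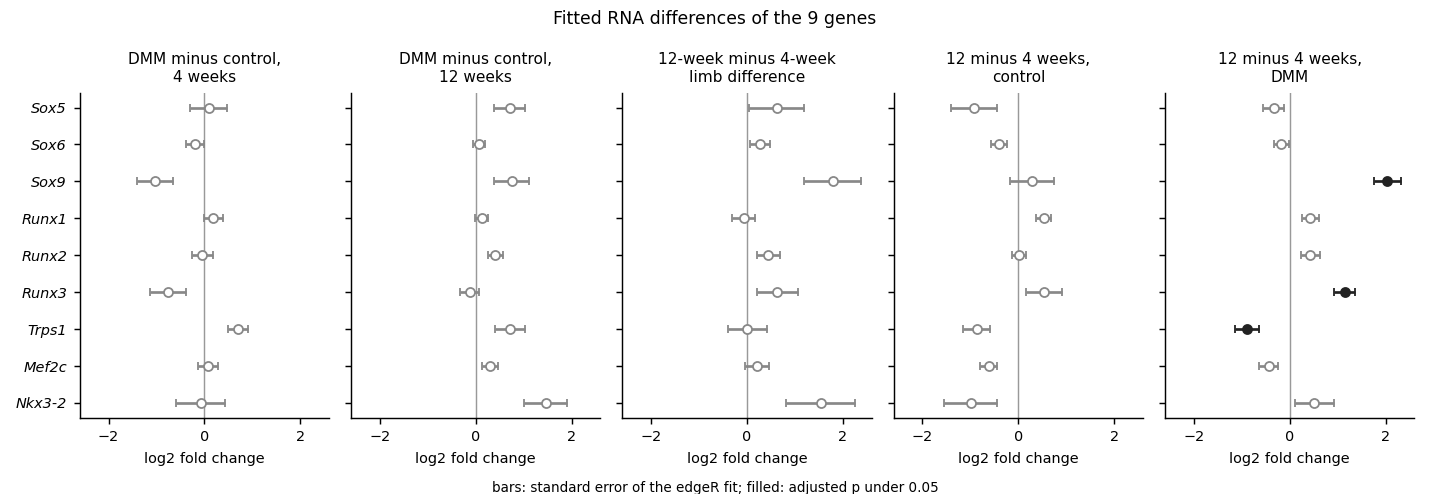
Log2 fold changes of the 9 genes (horizontal axes) with the standard error of the edgeR fit in 5 comparisons, filled where the adjusted p was under 0.05. The filled points are those of Sox9 (2.03), Runx3 (1.14) and Trps1 (-0.89) between the times in DMM limbs.

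Comparing 12 with 4 weeks within DMM limbs gave calls. Sox9 rose 4.09-fold, from 48.4 to 97.4 CPM up to 233 to 354 CPM (log2 fold change 2.03, SE 0.28, adjusted p = 0.00384, edgeR). Runx3 rose 2.21-fold, from 3.81 to 5.07 CPM up to 8.73 to 11.5 CPM (1.14, SE 0.22, adjusted p = 0.00845, edgeR). Trps1 fell, from 90.2 to 115 CPM down to 37.0 to 77.2 CPM (-0.89, SE 0.25, adjusted p = 0.03, edgeR). These are 3 of 9 genes, 2 higher and 1 lower, in a comparison that called 23.8% of 20951 rows, 12.1% higher and 11.7% lower. Without adjustment 5 of 9 had p under 0.05, against 39.0% of rows, and 6 of 9 genes had groups that did not overlap against 43.1% of rows.

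The calls of Sox9 and Runx3 held with each library left out in turn (adjusted p 0.000619 to 0.0177 and 0.00312 to 0.036, edgeR). The call of Trps1 was lost without DMM 4-week replicate 2 (adjusted p = 0.0706), 4-week replicate 3 (0.089), 12-week replicate 1 (0.0783) or 12-week replicate 3 (0.0843). Without DMM 4-week replicate 1, Runx1 (0.0183) and Runx2 (0.0216) were called as well. The 23.8% of rows above belongs to the fit of all 6 libraries, and the share without that library is not given here.

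Within control limbs, 0 of 9 genes passed, as did 0 of 21222 rows by edgeR, where 21.2% of rows and 4 of 9 genes had an unadjusted p under 0.05. The groups did not overlap for 4 of 9 genes (background 27.4%). DESeq2 called 3 of 9 genes (11.7% of its 22098 rows), which were Mef2c (log2 fold change -0.62 in the edgeR fit, SE 0.18), Trps1 (-0.87, SE 0.28) and Runx1 (0.53, SE 0.16). Sox9 gave 0.28 (SE 0.46) in these limbs. The comparisons within and between limbs share libraries, and the difference between the limbs in the step from 4 to 12 weeks is the interaction, in which no gene passed.

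The genes that these factors act on or with were described from lists. Of 16 cartilage matrix targets, 0 were called at 4 weeks and 0 at 12 weeks, with 13 estimates below 0 at 4 weeks (median log2 fold change -0.70, all rows -0.03) and 16 above 0 at 12 weeks (0.55, all rows 0.01). At 4 weeks the smallest p were those of Cnmd, an inhibitor of vessel growth (log2 fold change -0.95, SE 0.21), Chadl (-1.48, SE 0.37), Matn1 (-1.24, SE 0.40) and Matn3 (-2.98, SE 1.08). The Matn3 estimate rests on control replicate 3, at 25.6 CPM, since the other controls were at 1.38 and 2.05 CPM and DMM at 0.73, 1.22 and 1.80 CPM. At 12 weeks they were those of Comp (1.0, SE 0.28), Col27a1 (1.12, SE 0.34), Col2a1 (1.01, SE 0.37) and Chadl (0.87, SE 0.36). DESeq2 called 2 of 16 lower at 4 weeks, where it called 3.44% of all rows, and 2 of 16 higher at 12 weeks, where it called 4.02%. In DMM limbs between the times, 4 of 16 rose by edgeR, where 12.1% of all rows were called higher and 11.7% lower: Col11a2 (1.74, SE 0.29), Col27a1 (1.45, SE 0.27), Col9a2 (1.38, SE 0.29) and Acan (1.29, SE 0.32), all collagens or the main proteoglycan of cartilage.

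Of 12 hypertrophy and bone targets, 0 were called by edgeR in DMM against control at each time, with medians of 0.33 and 0.36 and with 10 of 12 estimates above 0 at 4 weeks and 9 of 12 at 12 weeks. DESeq2 called 1 higher at 4 weeks and 2 higher at 12 weeks (3.44% and 4.02% of all rows called). The smallest p at 4 weeks belonged to Bglap2, an osteocalcin gene (log2 fold change 0.76, SE 0.23), the vessel growth factor Vegfa (-1.02, SE 0.33), Ibsp, bone sialoprotein (0.97, SE 0.34), and Phex (0.60, SE 0.30). At 12 weeks they were those of Ibsp (1.06, SE 0.25), Alpl, alkaline phosphatase (1.01, SE 0.25), Col10a1, the collagen of hypertrophic cartilage (1.02, SE 0.38), and Vegfa (0.61, SE 0.23), whose estimates at the 2 times had opposite signs. Between the times in DMM limbs, 5 of 12 were called, against 23.8% of all rows. Of these 2 rose, Vegfa (1.39, SE 0.25) and Col1a1 (1.40, SE 0.30), and 3 fell, the collagenase Mmp13 (-1.31, SE 0.28), Ibsp (-1.07, SE 0.24) and Bglap2 (-0.61, SE 0.19).

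Of 31 partners and regulators tested, 0 passed by edgeR between limbs at each time, with 20 estimates below 0 at 4 weeks and 26 above 0 at 12 weeks. DESeq2 called 0 at 4 weeks and 1, higher, at 12 weeks. The smallest p at 12 weeks belonged to Pth1r (0.89, SE 0.21), its ligand Pthlh (1.0, SE 0.32), Twist1 (1.22, SE 0.39) and Ihh (0.82, SE 0.30). Pth1r, Pthlh and Ihh form the signalling loop that times hypertrophy in growth cartilage, and TWIST1 is an inhibitor of RUNX2. In DMM limbs between the times 11 of 31 were called, against 23.8% of all rows. Of these 8 rose, among them Hdac5 (1.25, SE 0.20), a member of the deacetylases that restrain MEF2 factors, Ihh (1.27, SE 0.29) and Zfp219 (1.01, SE 0.20), and 3 fell, Twist1 (-1.12, SE 0.26), Wwtr1 (-0.81, SE 0.20) and Gli3 (-0.94, SE 0.24). Of 15 other genes of these families, 12 were tested in DMM limbs between the times, where Sox8 (1.55, SE 0.35) and Mef2d (1.03, SE 0.27) rose and Runx1t1 fell (-1.01, SE 0.29). Between limbs none of them passed by edgeR or DESeq2, and all 12 tested at 12 weeks had estimates above 0 (median 0.29).

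Chondrocyte and other tissue markers were compared between the same groups. Between limbs DESeq2 called 3.44% of all rows at 4 weeks and 4.02% at 12 weeks. In DMM limbs between the times edgeR called 12.1% of all rows higher and 11.7% lower, and DESeq2 called 29.0% of 21540 rows in either direction. Of 8 chondrocyte markers 0 passed by edgeR between limbs at each time, with medians of -0.62 at 4 weeks and 0.52 at 12 weeks, when 8 of 8 estimates were above 0, and DESeq2 called 1 lower at 4 weeks and 1 higher at 12 weeks. In DMM limbs between the times 2 of 8 rose, Acan and Prg4 (lubricin of the joint surface, 0.97, SE 0.27), with a median of 0.62, where 12.1% of all rows rose, and DESeq2 called 4 higher. In the fibroblast and synovium list, 0 of 8 passed by edgeR between limbs, with a median of 1.02 at 4 weeks, when the summed level was 3778 to 12170 CPM in control and 14526 to 20510 CPM in DMM, and of 0.68 at 12 weeks. DESeq2 called 3 of these 8 higher at 4 weeks and 2 at 12 weeks. Against 11.7% of all rows, 4 of 8 fell in DMM limbs between the times, among them Postn (-2.70, SE 0.31) and Pdgfra (-1.56, SE 0.21), as did 4 of 6 endothelial markers, and 1 of 8 rose, Pi16 (1.69, SE 0.22). Against 12.1% of all rows, 2 of 9 myeloid markers rose, Mpo (1.17, SE 0.30) and Ltf (0.76, SE 0.24), as did 2 of 10 erythroid markers, Epor (1.04, SE 0.23) and Klf1 (0.87, SE 0.25), and 2 of 8 osteoblast and osteocyte markers, Sost (1.5, SE 0.31) and Col1a1, in a list of which Ibsp fell. Of 9 lymphocyte markers 1 fell, Ms4a1 (-1.07, SE 0.22), and of 12 muscle markers 0 passed in DMM limbs between the times by edgeR or DESeq2, with a median of 1.11. Between limbs at 4 weeks all 12 muscle estimates were below 0 (median -2.55), Myh1 passed by edgeR (-3.80, SE 0.45) and DESeq2 called 8 of 12 lower.

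Between limbs at 12 weeks, when 8 of 9 members had estimates above 0, those of the blood lineages were mostly below 0. This held for 10 of 10 erythroid markers (median log2 fold change -0.35), 9 of 9 myeloid markers (-0.55) and 8 of 9 lymphocyte markers (-0.56), beside a median of 0.01 over all rows. Of the osteoblast and osteocyte markers, 6 of 8 were above 0 (0.36), of the endothelial markers 2 of 6 (-0.15) and of the muscle markers 4 of 12 (-0.19). None of these lists had a marker called by edgeR at 12 weeks, while DESeq2 called 1 erythroid, 1 myeloid and 1 lymphocyte marker lower and 3 of 8 osteoblast and osteocyte markers higher. At 4 weeks the medians were -0.15 for erythroid, -0.03 for myeloid, -0.11 for lymphocyte, 0.29 for osteoblast and osteocyte and 0.21 for endothelial markers, with 1 osteoblast marker called higher by DESeq2. The part of these lists in the limb differences of the 9 genes, Runx2 and Nkx3-2 among them, and in the changes of Sox9, Runx3 and Trps1 between the times was not tested.

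Turning to DNA, median coverage per cytosine was 22 to 102 reads in the oxBS libraries and 19 to 75 in the BS libraries, and every deposited cytosine had at least 10. The start sites of these genes were almost free of 5mC. Within 1 kb of the annotated starts, mean 5mC was 0.427% to 1.15% over 67 cytosines in Sox9, at most 1.05% in Runx1, at most 1.42% in Runx2 and at most 2.18% in Runx3 in every library. It was also under that level at Trps1, Mef2c and Nkx3-2 and higher at Sox6, where it was 2.12% to 7.36%. No cytosine within 1 kb of a Sox5 start was covered in all libraries.

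As an example, the 250 bases before the start of Nkx3-2 carry 20 covered CpGs (capitals), whose mean 5mC was 0.311% to 1.91% in the 12 libraries over 22 cytosines.
Nkx3-2, upstream of the start, chr5:41764221-41764470: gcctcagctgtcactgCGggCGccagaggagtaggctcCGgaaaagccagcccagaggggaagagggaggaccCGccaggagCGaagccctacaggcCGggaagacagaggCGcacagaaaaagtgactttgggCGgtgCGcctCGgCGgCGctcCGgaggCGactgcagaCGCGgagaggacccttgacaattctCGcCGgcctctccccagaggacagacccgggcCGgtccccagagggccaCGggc

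In the RefSeq promoters of GRCm38.p6 (250 bases before to 50 after a start), which cover 7 of the 9 genes with 16 promoters, the SOX core ACAAT was found on either strand in 7 of 16, among them that of Nkx3-2, and in 31.0% of 32851 promoters in all. The RUNX core TGTGGT was found in 5 of 16, of Runx1, Runx2, Runx3 and Sox6, and in 16.8% of all. A match describes letters and not binding.

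The gene windows differed widely. Over cytosines covered in all 12 oxBS libraries, mean 5mC of the whole window in control at 4 weeks was 56.4% ± 2.80 (SD, n = 3) in Sox5 (277 cytosines) and 30.9% ± 3.31 in Runx1 (265), and only 1.81% ± 0.311 in Sox9 (97), beside 28.6% ± 0.83 over all 1212709 covered cytosines. None of the 97 Sox9 cytosines reached 20% in control, whereas 79 of 277 in Sox5 were above 80%. The Sox5 window held no start cytosine, against 86 of 265 in Runx1 and 67 of 97 in Sox9. In gene bodies outside the starts, control at 4 weeks was at 59.3% in Sox5, 44.3% in Runx1 and 4.02% in Sox9.

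At 4 weeks no window of the 9 genes had limbs that did not overlap (background 6.32% lower and 2.1% higher among 18679 gene windows with at least 20 cytosines), and 0 of 1963 cytosines and no region were called (background 0.000554% of cytosines). The limbs did not overlap at 108 of 1963 cytosines (5.5%), against 6.14% in the genome. Leaving out control replicate 2, which had the deepest oxBS coverage of that time, 13 cytosines in Runx1 and Sox5 and 1 region were called, the cytosines all lower in DMM. The genome shares called, and called lower, without that library are not given here, so these counts have no background.

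At 12 weeks 6 of 9 windows were lower in every DMM library than in every control library, where the same was true of 27.7% of gene windows, and 1 of 9 was higher, against 3.97%. From pooled reads, which weight each cytosine by its coverage, 3 of these 9 windows had limbs apart in place of 7. The shares of all gene windows are from unweighted means, and none was computed from pooled reads. Mean 5mC over all covered cytosines was also apart, 29.2% ± 0.30 in control and 28.3% ± 0.364 in DMM. With 3 libraries against 3, the exact two-sided permutation test cannot go below p = 0.1, which is the value for each of these windows.

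The largest differences of whole windows were in Runx1 and Sox5. Among gene bodies outside the starts the largest was in Nkx3-2, 8.11 points higher in DMM. The Runx1 window was at 33.6%, 33.9% and 35.1% in control and 28.3%, 29.7% and 30.0% in DMM. In its gene body outside the starts, 5mC was 49.3% ± 1.26 in control and 42.4% ± 1.34 in DMM (SD, n = 3). The Sox5 window was at 60.1%, 61.0% and 60.2% in control and 55.6%, 58.1% and 55.4% in DMM. Both were lower by more than the spread of either limb.

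Sox6 was at 23.9% ± 0.383 in control and 21.4% ± 0.97 in DMM, Runx3 at 26.5% ± 0.547 and 24.2% ± 0.756, Runx2 at 20.2% ± 0.455 and 18.9% ± 0.724, and Trps1 at 4.84% ± 0.58 and 3.85% ± 0.275 (SD, n = 3). Nkx3-2 was the exception, with a window at 10.4%, 11.7% and 9.88% in control and 14.1%, 13.8% and 13.5% in DMM. Its start stayed at 1.19% to 1.75%, and the gene body outside the start was at 23.4% ± 1.84 in control and 31.5% ± 1.18 in DMM. The body value at 4 weeks was 34.6% ± 5.74 in control and 41.2% ± 4.68 in DMM, with overlap. An antisense RNA gene, Gm46910, overlaps the Nkx3-2 start. In Sox9 (1.75% ± 0.374 and 1.92% ± 0.726) and Mef2c (24 cytosines) the limbs overlapped.

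**Figure D3:**
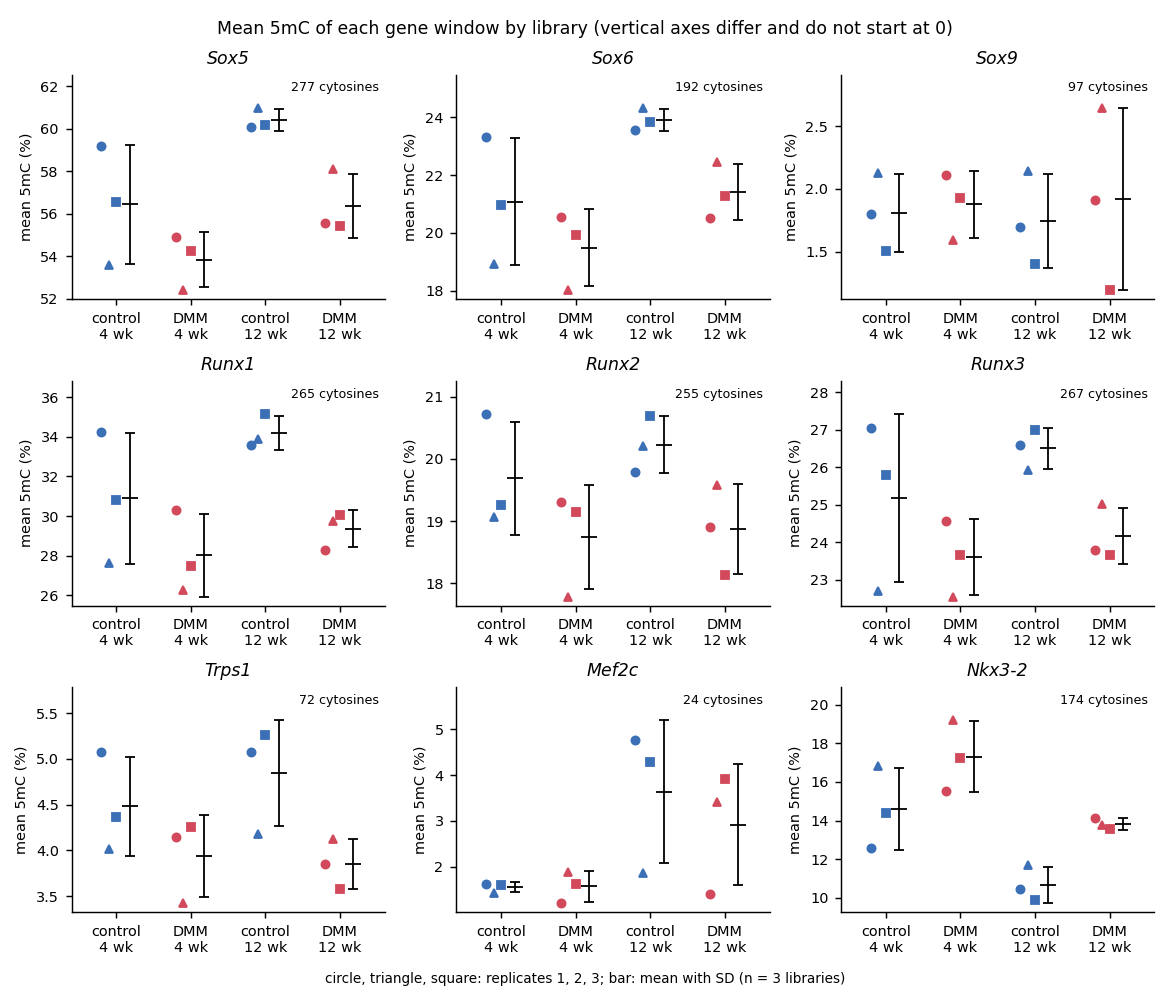
Mean 5mC in percent (vertical axes, which differ and do not start at 0) over the cytosines of each gene window covered in all 12 oxBS libraries, by limb and week, with replicates as symbols and the mean with SD. At 12 weeks the DMM libraries lie below all control libraries in Sox5, Sox6, Runx1, Runx2, Runx3 and Trps1 and above them in Nkx3-2.

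The 12 cytosines called at 12 weeks are 0.7% of the 1715 tested around these genes, beside a background of 0.227%, and all 12 were lower in DMM, where 0.2% of all cytosines and 88.1% of calls in the genome were lower. They lie in Sox5 and Runx1 (5 each), Sox6 (1) and Runx2 (1), all in introns, and no called cytosine lay in Sox9, Runx3, Trps1, Mef2c or Nkx3-2. By cytosine, the limbs did not overlap at 240 of 1715 (14.0%), against 8.11% in the genome. At a coverage of at least 20 reads in every library, which leaves fewer cytosines to test, 4 were called. The genome share at that coverage is not given here.

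The called Sox5 region, whose sequence opens the list above, spans 66 bp with 6 tested cytosines, and its called cytosine lies 92549 bp from the nearest annotated start. Its mean 5mC was 50.3%, 49.0% and 57.7% in control and 28.9%, 41.9% and 29.2% in DMM, with coverages of 21 to 117 reads. Every DMM library was below every control. The called Runx1 region holds 3 tested cytosines, 4264 bp downstream of the proximal start, and its 5mC was 67.2%, 65.6% and 69.8% in control and 46.8%, 40.5% and 47.7% in DMM. These are 2 of 323 regions called in the genome at 12 weeks. Neither limb pair overlapped, but no region was called around the 9 genes without control replicate 3 or without DMM replicate 1.

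Outside the regions, a pair of Runx1 cytosines 11 bp apart, at chr16:92683964 and chr16:92683975, was at 55.8% and 54.0% in control and 19.4% and 19.9% in DMM on average. The Runx1 cytosine at chr16:92694654, 2675 bp downstream of the proximal start, was at 43.2%, 30.0% and 31.2% in control and 13.2%, 11.1% and 7.69% in DMM. At chr16:92778231, between the distal and the proximal start, the means were 43.6% and 16.0%. The Sox6 call at chr7:115512034, inside the antisense RNA gene Gm51455, was at 44.4%, 58.1% and 63.8% in control and 21.9%, 26.7% and 25.4% in DMM.

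In Sox5, a group of 3 calls at chr6:144170875 to chr6:144171073 had control means of 44.6%, 51.3% and 68.8% and DMM means of 23.3%, 27.4% and 37.4%. The first pair of them overlapped between limbs. These means weight libraries equally, while calls rest on pooled reads, by which the differences were -26.2, -26.8 and -30.4 points. At chr6:144203569, 5999 bp downstream of an annotated start, values were 53.4%, 40.7% and 51.2% in control and 25.8%, 42.5% and 12.1% in DMM, so that 1 DMM library was above 1 control. The Runx2 call at chr17:44505949 also overlapped, with 61.7%, 61.1% and 31.3% in control and 18.8%, 40.9% and 18.9% in DMM.

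**Figure D4:**
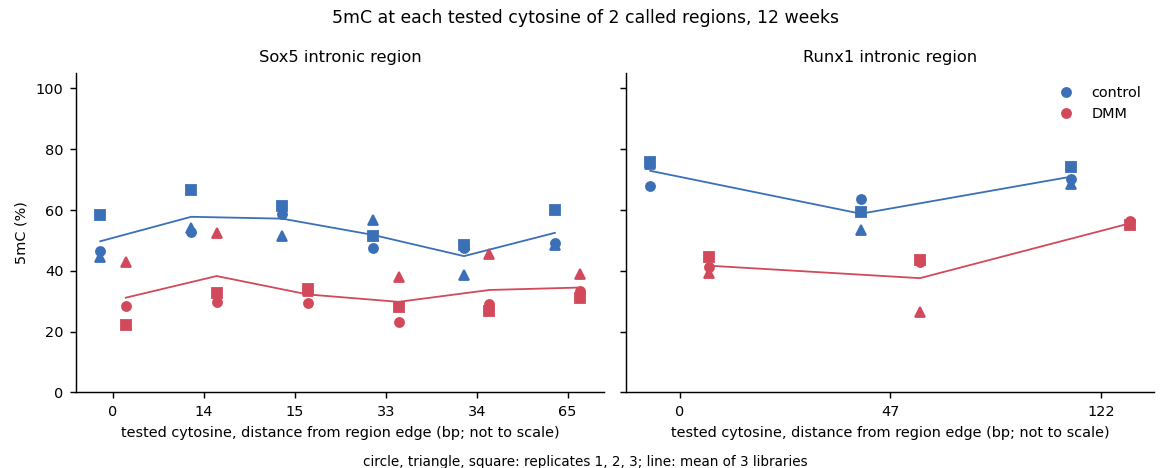
5mC in percent (vertical axis) at each tested cytosine of the called Sox5 and Runx1 regions at 12 weeks (horizontal axis, distance from the region's edge in bp, not to scale), with replicates as symbols and lines through the means. In the Runx1 region all 3 control libraries lie above all 3 DMM libraries at each cytosine, and in the Sox5 region at 5 of 6.

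Among members with no call at 12 weeks, the smallest p in Runx3 was at chr4:135175440 in a coding exon, where means were 53.0% in control and 25.2% in DMM and the pooled difference was -24.6 points. In Trps1 it was at chr15:50844452, with a difference of -18.4 points and limbs that overlapped, and in Nkx3-2 at chr5:41766641, 2421 bp upstream of the start, where 5mC was higher in every DMM library, at 34.2% on average in control and 53.6% in DMM. In Mef2c the limbs overlapped at its smallest p (chr13:83662528, -25.6 points, q = 0.12 in the likelihood ratio test of pooled reads). In Sox9 that cytosine was 1.42% in control and 0% in DMM.

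At 4 weeks, the smallest p lay at chr6:144152460 in Sox5 (-14.3 points) and at chr4:135129774 in Runx3 (-12.3 points), and the limbs did not overlap at these. At those of Runx1 (chr16:92699667, 23.6 points), Sox6 (chr7:115774744, 15.6 points), Runx2 (chr17:44761183, 18.8 points), Nkx3-2 (chr5:41761353, 11.3 points), Sox9 (chr11:112781668, 5.45 points), Mef2c (chr13:83524412, -3.66 points) and Trps1 (chr15:50869743, -1.92 points) they overlapped. None had q under 0.05.

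The 5hmC level, BS minus oxBS in points of percent, was high in Sox5. In control at 4 weeks it was 7.23, 10.9 and 9.51 points over the Sox5 window and 9.80, 12.3 and 10.5 points in DMM, beside 2.15 ± 0.502 and 2.57 ± 0.262 over all covered cytosines (SD, n = 3). Runx1 followed with 5.87 ± 1.20 in control and Sox6 with 4.63 ± 1.25. No cytosine of the Sox5 window lay at a start, whereas 79 of 255 in Runx1 did, with a control mean of 0.00268 points. In gene bodies outside the starts, 5hmC of control was 7.15, 10.7 and 9.43 points in Sox5 and 6.59, 9.65 and 8.87 points in Runx1. In Sox9 it was between -0.217 and 0.786 at 4 weeks, which includes 0, since a subtraction can go below it.

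At 12 weeks 5hmC of the Sox5 window was 6.19, 4.24 and 6.08 points in control and 9.22, 7.49 and 8.61 points in DMM. In Runx2 it was 2.0, 1.44 and 1.41 points in control and 2.71, 3.25 and 3.52 points in DMM. In these and in Sox6 and Runx1, 4 of 9 windows, every DMM library was above every control (background 12.2% of 18122 gene windows). From pooled reads, and likewise at 20 reads or more in every library, 2 of 9 windows had limbs apart. No share of all gene windows was computed under these settings. At 4 weeks no window was apart (background 6.88% higher, 2.35% lower). The level over all covered cytosines was apart at 12 weeks too, 1.5 ± 0.0968 in control and 2.0 ± 0.286 in DMM. The BS library of DMM replicate 1 at 12 weeks carries another replicate number in its deposited file name than in its title, which was followed. Leaving that library out cannot make limbs that are apart overlap, so its part in these 4 windows was not tested.

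The BS level holds the sum of 5mC and 5hmC. In the Sox5 window it was 66.2% ± 0.586 in control and 65.0% ± 0.852 in DMM at 12 weeks, and in Runx2 22.1% ± 0.265 and 22.3% ± 0.724. By the sum, 3 of 9 windows (Sox6, Runx1 and Trps1) were lower in every DMM library than in every control (background 18.1%) and 1 was higher (background 6.59%), and at 4 weeks 0 of 9 were apart (background 6.31% lower, 2.95% higher). The Runx1 sum was at 38.4%, 37.8% and 38.2% in control and 35.5%, 34.7% and 35.1% in DMM. The higher one was Nkx3-2, at 12.3% ± 0.647 and 15.8% ± 0.13. At the called Runx1 cytosine chr16:92693004 the BS means were 77.4% in control and 71.9% in DMM. The libraries were at 83.75%, 75.0% and 73.3% in control and at 85.4%, 56.6% and 73.7% in DMM, so the limbs overlapped. The highest was DMM replicate 1, whose BS file name and title disagree. At the called Sox5 cytosine, chr6:144039655, the BS means were 46.3% and 52.1%. There the control 5mC mean of 57.2% was above the BS mean, although 5mC is only part of that sum. The change of 5hmC at this cytosine cannot be read from these values. At the Runx1 pair near chr16:92683964 the BS level was lower with 5mC, at 63.5% in control and 36.1% in DMM.

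**Figure D5:**
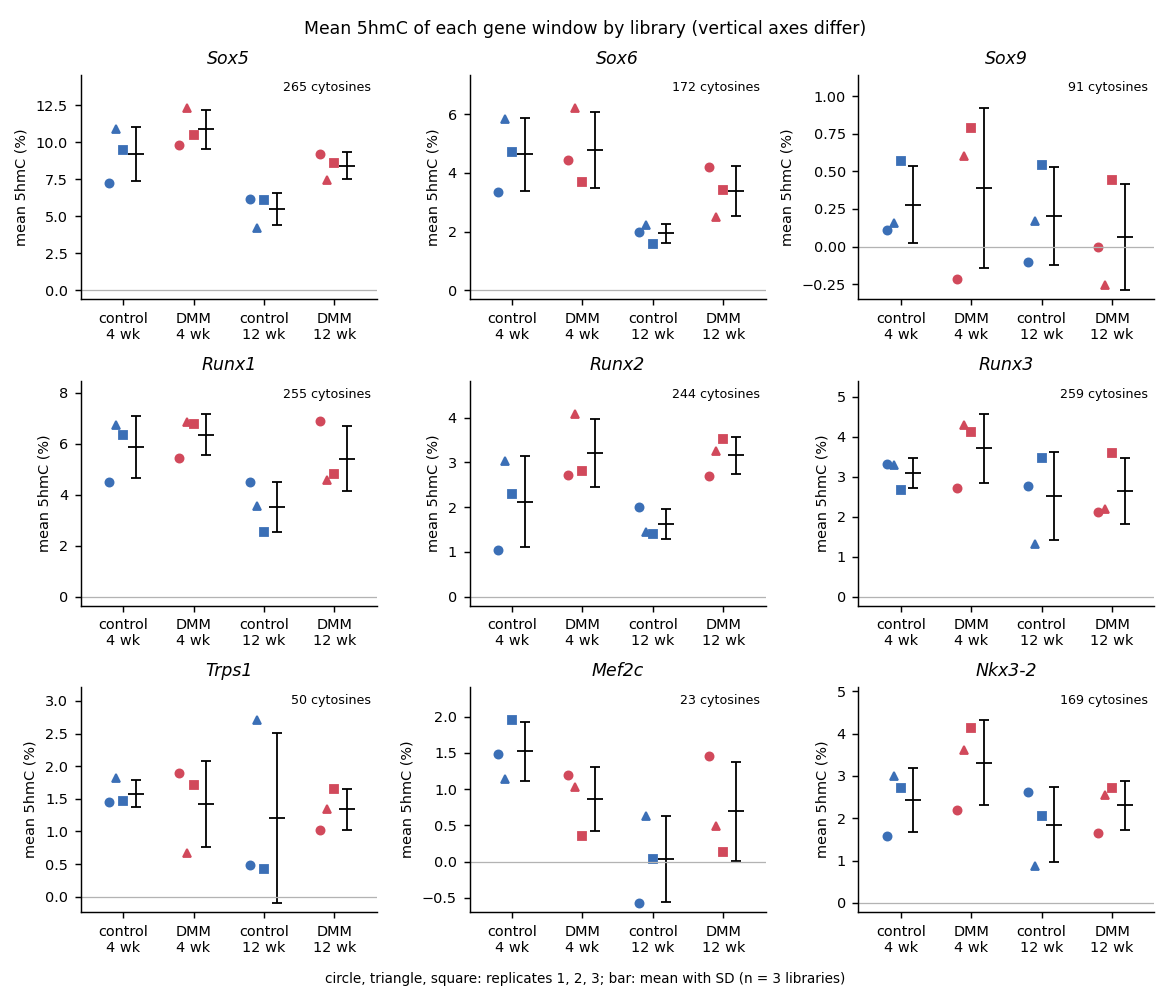
Mean 5hmC (BS minus oxBS, in percent, vertical axes that differ) over the cytosines of each gene window covered in all 24 libraries, by limb and week, with replicates as symbols and the mean with SD. The Sox5 window, with no start cytosines, holds the most (4.24 to 6.19 in control and 7.49 to 9.22 in DMM at 12 weeks). Sox9 lies near 0.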

How the data were processed

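Right (DMM) and left (control) limbs were assigned by the labels. For RNA, the authors aligned reads with STAR to mm10 and counted them with featureCounts on RefSeq transcripts, and deposited raw counts. A read can be counted on several transcripts of a gene, and whether strand was used is not given in the sources used here. Labels and methods describe different library kits. For DNA, the authors deposited, per CpG cytosine and strand, the coverage and the percent of reads with C (Bismark in the submitters' notes), of which none was below 10 reads. All 2055 covered cytosines in the 9 windows fell on CpGs of GRCm38, and the RefSeq annotation of GRCm38.p6 gave symbols and features.

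Counts were tested in R 4.3.3 by the quasi-likelihood test of edgeR 4.0.16 (TMM, filterByExpr), each pair of groups in its own fit and the interaction over 12 libraries, with Benjamini-Hochberg adjustment over all rows. Rows of a gene share reads, and replicate pairs differed by 47.7 to 480 times counting noise (chi-square per degree of freedom). Cytosines were tested by a likelihood ratio test of pooled reads in Python 3.11.15 (scipy 1.17.1), which leaves out the spread between libraries. A region joins 3 or more tested cytosines no more than 100 bp apart, whose differences average 20 points or more and of which 1 or more reached 25 points with q below 0.01. P-values of the RNA and permutation tests measure the spread between pools, and those of the cytosine test measure the sampling of reads. Tests were tried on simulated data. Alternatives were DESeq2 1.42.0, other scaling and filters, 1 fit, 1 row per gene, a replicate block, leaving out libraries, and other coverage, q, difference and gap limits.

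The genes, lists and tests were chosen with earlier results of these data known. Named were all 9 genes, of each list the called genes and up to 4 with the smallest p, the 3 genes nearest in pattern to Sox9, Runx2 and Runx1, every called cytosine or region and the one with the smallest p per gene and week. Of the list genes that this rule names, only examples are given.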

Additional observations from a re-analysis of the deposited data

How the results depend on the processing

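No member was called between limbs under any alternative but these. With the replicate number as a block, 2 members (Sox5, adjusted p = 0.044, and Trps1, 0.0352, edgeR) were called at 12 weeks, when the block called 734 of 21010 rows (3.49%). The labels and methods do not say whether same-numbered pools came from the same mice. Correlations of such RNA pools were 0.40, -0.45 and 0.11 at 4 weeks and -0.69, 0.40 and -0.31 at 12 weeks. Each time 1 of 3 pools was nearest its own number. For DNA pools the correlations were 0.257, 0.209 and 0.00264 at 4 weeks and -0.0553, -0.0449 and 0.0383 at 12 weeks. Correlations in groups of 3 cannot settle whether the pools were paired. With the block 13 cytosines were called at 12 weeks, and the genome share with the block is not given here. Leaving out each library gave 0 to 1 members at 12 weeks, the 1 (Sox9) without control replicate 2. It gave 0 to 2 in control limbs between the times, the 2 without 4-week replicate 3, and 2 to 5 in DMM limbs. The shares of all rows called with libraries left out are not given here, so these member counts have no background. DESeq2 called 3 members in control limbs, and of the other list genes 14 of 130 at 4 weeks (10.8%, all rows 3.44%), 12 of 129 at 12 weeks (9.3%, all rows 4.02%) and 22 of 127 in control limbs (17.3%, all rows 11.7%), where edgeR called 1, 0 and 0. The cause of these differences was not tested.

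Of 12 cytosines called at 12 weeks, the count became 0 with overdispersion, 7 at q under 0.01, 4 at 20 reads or more and 39 at 20 points, and 7 to 19 with libraries left out (0 to 13 at 4 weeks). The genome share of 0.227% belongs to the main setting. Those of the alternatives are not given here, so these counts have no background. The 2 regions became 1 with gaps of 50 bp and 4 with a q of 0.05, and 0 to 6 with libraries left out (6 without control replicate 2), or 0 to 1 at 4 weeks. Windows with limbs apart at 12 weeks became 3 for 5mC from pooled reads and 2 for 5hmC both from pooled reads and at 20 reads or more, and 5hmC gave 1 at 4 weeks from pooled reads. With libraries left out they were 7 to 8 for 5mC and 4 to 6 for 5hmC at 12 weeks, and 0 to 6 and 0 to 5 at 4 weeks. Leaving out a library cannot make limbs that are apart overlap, so these window counts could not fall. No share of all gene windows was computed under any of these alternatives.

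Estimates near 0 changed sign. The Trps1 interaction was -0.00526 without a filter and -0.0927 with library totals, and the Mef2c 5mC window at 4 weeks differed by -0.572 points at 20 reads or more. With libraries left out, log2 fold changes at 4 weeks ranged from -0.29 to 0.45 for Sox5, -0.22 to 0.0767 for Runx2, -0.0312 to 0.23 for Mef2c and -0.51 to 0.21 for Nkx3-2. For Runx1 they ranged from -0.00054 to 0.17 at 12 weeks and from -0.18 to 0.0779 in the interaction, for Trps1 from -0.28 to 0.23 in the interaction, and in control limbs from -0.30 to 0.55 for Sox9 and -0.0638 to 0.12 for Runx2. Counts of 15 to 111 reads limit Nkx3-2, and 24 covered cytosines limit Mef2c.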
